A study of Mus musculus with 4 samples.

Results

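Slco4a1 Dnajc5b fibroblasts were a group of lesional nuclei labelled dural-border-like and chosen on a pooled count of transcripts that included Dnajc5b, Vsx1, Slco4a1, Hs3st1 and Bche, so that a single nucleus need not hold each of them. They were picked out by measured levels in the lesion matrices. A nucleus was kept if it had at least 757 unique molecular identifiers (UMIs, each standing for 1 captured transcript) and at most 1 UMI of 8 genes of other cell types, which were Csf1r, Slc17a7, Gad2, Mog, Cd247, Aqp4, Flt1 and Ibsp. It also needed at least 3 UMIs of a panel of 7 genes, the 5 above with Afap1l1 and Cyp2f2, and more UMIs of that panel than of each of 3 other fibroblast panels. This left 632 nuclei of 17029 lesional barcodes, and of 23489 barcodes in the whole series. The same rule turned to the other panels gave 2203 late inner nuclei (panel A, with Edar, Pappa, Col14a1, Eln and Matn4), 1731 leptomeningeal nuclei (panel B, with Ranbp3l, Igfbp3, Ocln, Slc7a14, Trp53i11 and Prg4) and 1002 pial-like nuclei (panel D, with Lama1, Dcdc2a, Slc7a11, Col4a6, Col13a1 and Kl). These served for comparison.

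Nuclei came from the brains of adult mice at 21 days post-injury (dpi), after photothrombotic (PT) injury of the cortex, in which light on a circulating dye closes small vessels. Mice labelled control carried the genotype label WT. Those labelled Cxcl12-cKO joined a floxed Cxcl12 gene to Col1a2-creER, a tamoxifen-inducible Cre driven by a collagen 1 gene, so that recombination was aimed at fibroblasts and not at other sources of Cxcl12. Each of the 2 libraries pooled 1 male and 1 female mouse, mixed at 75% lesional and 25% parenchymal nuclei, and 397 and 235 of the Slco4a1 Dnajc5b nuclei came from the libraries labelled control and Cxcl12-cKO. All mice were injured, and the dura had been dissected away from the lesion and is not analysed here. With 1 library for each genotype there is no replicate check and no test between genotypes. Intervals in parentheses are at 95% and cover counting error only.

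The meninges are built of fibroblast layers with different tasks. The dura is rich in collagen, the dural border cells form a flattened, loosely held sheet at its inner face, the arachnoid barrier cells seal the space beneath with tight junctions and efflux transporters, and the pia and perivascular fibroblasts lie on the brain and its vessels. Slc47a1, which encodes a proton-coupled exporter of organic cations, is among the genes used to recognize the dural border. After a cortical wound, fibroblasts from these layers enter the lesion and build a scar.

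The genes of the rule are of different kinds. Slco4a1 encodes an organic anion transporter of the plasma membrane, Bche encodes butyrylcholinesterase, a secreted enzyme that splits choline esters, and Hs3st1 encodes a sulfotransferase that adds 3-O-sulfate to heparan sulfate. The 250 bases before the annotated start of each of these 3 genes are given from RefSeq (build GRCm38.p6, another build than the GRCm39 genome of the counts), 5′ to 3′ on the strand of the gene, because the 3 genes are of the panel that chose the nuclei. They lie outside the transcripts, at chr2:180455995-180456244 on the plus strand for Slco4a1, chr3:73708416-73708665 on the minus strand for Bche and chr5:39644632-39644881 on the minus strand for Hs3st1. Capitals mark matches, on either strand, to the GC box (GGGCGG) or the CCAAT box (CCAAT).
Slco4a1: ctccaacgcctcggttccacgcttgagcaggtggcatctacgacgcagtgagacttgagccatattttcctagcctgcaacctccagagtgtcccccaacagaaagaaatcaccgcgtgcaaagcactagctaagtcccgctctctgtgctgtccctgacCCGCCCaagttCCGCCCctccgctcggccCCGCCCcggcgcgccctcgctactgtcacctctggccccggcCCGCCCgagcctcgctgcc
Bche: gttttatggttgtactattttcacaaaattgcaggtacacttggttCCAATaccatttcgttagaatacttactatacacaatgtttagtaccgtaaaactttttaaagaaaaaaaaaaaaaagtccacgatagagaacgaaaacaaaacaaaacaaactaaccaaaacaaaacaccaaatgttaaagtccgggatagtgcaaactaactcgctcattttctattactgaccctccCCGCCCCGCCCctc
Hs3st1: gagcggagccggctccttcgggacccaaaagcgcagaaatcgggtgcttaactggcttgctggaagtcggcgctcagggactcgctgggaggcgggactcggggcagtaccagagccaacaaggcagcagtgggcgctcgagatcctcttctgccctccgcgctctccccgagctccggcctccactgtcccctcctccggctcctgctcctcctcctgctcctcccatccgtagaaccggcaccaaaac

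The 3 windows differed in composition. Guanine and cytosine made up 64.8% of the Slco4a1 window and 66.0% of the Hs3st1 window, against 35.6% of the Bche window. The Slco4a1 window held 4 GC boxes, the Bche window held 2 that overlap by 1 base and 1 CCAAT box, and the Hs3st1 window held neither. No match to the TATA box (TATAAA) was found in any of them, nor to the E-box (CACGTG), nor to a forkhead string (TGTTTAC). Among 32851 windows of the same length, 32.7% held a GC box, 33.8% a CCAAT box, 12.4% a TATA box, 6.02% an E-box and 3.17% the forkhead string. A match is a string of letters and not a site.

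Slco4a1 Dnajc5b nuclei were deeper than the other fibroblast nuclei, with medians of 4462 and 4148 UMIs under the control and Cxcl12-cKO labels, against 2790 to 3940 in the other 3 groups. In all they held 1999873 and 1138687 UMIs. Their median share of mitochondrial UMIs was 1.31% and 1.13%, against 0.200% to 0.291% in the other groups, and it was higher in each mouse, at 0.948% to 1.56% against 0.149% to 0.350%. Nuclei were assigned to the female or the male mouse by Xist and 4 Y-linked genes, and nuclei with both or neither enter no value for a mouse. UMIs of both sexes occurred in 10.1% and 12.3% of Slco4a1 Dnajc5b nuclei, against 8.43% to 13.1% in the other groups. The part of mitochondrial RNA in the results was not tested. The libraries shared 22 lesional barcodes and no barcode of these nuclei.

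Some of the 632 nuclei carried transcripts of other cell types. A marker check, added after the data had been seen, set aside nuclei with at least as many UMIs of a list for another cell type as of 10 fibroblast genes. These 10 were Col1a1, Col1a2, Col3a1, Col5a2, Col6a3, Dcn, Lum, Pdgfra, Fbln1 and Fn1. Since their UMIs decide which nuclei stay, their levels after the check are in part set by that choice. The same holds for the genes of the lists for other cell types. A nucleus with no UMI of the 10 genes was set aside whatever else it held. This applied to 1 nucleus under the control label and 8 under the Cxcl12-cKO label. The check set aside 27 nuclei (6.80%) under the control label and 37 (15.7%) under the Cxcl12-cKO label and left 568. Because the libraries differed in this, values after the marker check are given for the main comparisons between them, and wherever it changed the call of a named gene.

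The 7 genes of the rule differed in how many nuclei they marked. These values chose the nuclei and are a description only, in CPM, which is 1e6 times the share of a gene in the summed UMIs of the group. Afap1l1, which encodes an actin-binding adaptor, was the most abundant, at 563 CPM (531 to 597) under the control label and 556 CPM (513 to 601) under the Cxcl12-cKO label, with a UMI in 81.1% and 85.5% of nuclei. Bche was at 261 and 231 CPM and in 46.1% and 46.4% of nuclei. Hs3st1 was at 113 and 145 CPM, and Cyp2f2, a cytochrome P450, at 74.0 and 43.0 CPM. Slco4a1 was at 63.0 CPM (52.5 to 75.0) and 36.0 CPM (25.8 to 48.8), in 24.4% and 14.9% of nuclei, and was thus lower under the Cxcl12-cKO label with intervals that did not overlap. Vsx1, a homeobox transcription factor, was at 55.0 and 65.9 CPM, and Dnajc5b, a cysteine string protein of the DnaJ family, at 39.5 and 49.2 CPM. Each of these genes reached 46.9 CPM or less in the other 3 groups. In myeloid nuclei (at least 3 UMIs of Csf1r, median depth 3216 and 3120 UMIs), which should lack these genes, Slco4a1 was found in 1.38% and 2.14% and Afap1l1 in 11.1% and 5.88%. Cyp2f2 had no UMI in myeloid nuclei labelled control but was at 39.0 CPM in those labelled Cxcl12-cKO, from 1.07% of nuclei, close to its 43.0 CPM here.

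Most nuclei were kept on few panel genes. In the library labelled control 81 of 397 nuclei had UMIs of 1 panel gene and 155 of 2, and under the Cxcl12-cKO label the numbers were 50 and 93 of 235. Slc47a1, which the rule did not use, rose with panel UMIs, but under the Cxcl12-cKO label it was flat at the threshold itself. With exactly 2 panel UMIs, just outside, it was at 1026 CPM in 165 nuclei labelled control and 887 CPM in 120 nuclei labelled Cxcl12-cKO. With exactly 3, just inside, it was at 1389 CPM in 107 nuclei and 893 CPM in 74, and with 6 or more at 1804 and 1402 CPM. Nuclei with no UMI of any panel were at 235 and 110 CPM. A further 85 and 50 nuclei reached 3 panel UMIs but had as many or more of another panel.

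Levels were next compared between Slco4a1 Dnajc5b nuclei and the 4936 nuclei of panels A, B and D together. The panels had been taken from clusters of these same nuclei, so this is a description with no test. A gene counted as called with at least 50 UMIs, a difference of at least 2-fold and an interval that excluded 0. Of 14167 genes with enough UMIs, 394 (2.78%) were called higher and 1193 (8.42%) lower, with a median log2 ratio of -0.11 over all genes. Genes named below had the same direction in all 4 mice where they come from the 15 highest or lowest ratios. Counts within lists are to be read beside the 2.78% and 8.42% of all genes.

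The label was checked against lists of meningeal layers. Of 7 dura and dural border genes outside the rule, 3 were called higher and 1 lower, with a median log2 ratio of 0.83. Slc47a1 was at 1484 CPM, against 509, 314 and 87.0 CPM in the late inner, leptomeningeal and pial-like nuclei, a log2 ratio of 2.01 (1.95 to 2.06). It was at 1548 and 1799 CPM in the female and male mice labelled control and at 959 and 1270 CPM in those labelled Cxcl12-cKO, above each other group in every mouse. Alpl, the tissue-nonspecific alkaline phosphatase, was at 94.6 CPM against 7.16 to 39.4 CPM (1.91, 1.70 to 2.12), and Fxyd5, a regulator of the sodium pump and of cell adhesion, at 244 CPM against 58.6 to 122 CPM (1.40, 1.28 to 1.53). Foxd1 at 314 CPM (0.80) and Mgp at 374 CPM (0.83) were also more abundant but under 2-fold. Dkk2, of the same list, was near 0 at 0.956 CPM (-3.92), and Matn4, a gene of the rule, was at 12.7 CPM.

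The arachnoid barrier list was also on the high side. Its 5 genes outside the rule had a median of 0.88, no lower than that of the dura list, and Slc47a1 alone, which both lists hold, was called. The list summed to 2046 CPM, of which Slc47a1 was 1484 CPM, against 711, 1033 and 265 CPM in late inner, leptomeningeal and pial-like nuclei. The efflux pump Abcb1a was at 375 CPM (0.98, 0.88 to 1.07), which passed 2-fold after the marker check (1.07), and the adhesion gene Cdh1 at 53.2 CPM, against 80.6 CPM in leptomeningeal nuclei and 2.88 and 3.81 CPM in the other groups. The tight junction gene Ocln, of panel B, was at 1.91 CPM against 43.3 CPM in leptomeningeal nuclei. Of 9 leptomeningeal genes, 6 were called lower and none higher, with a median of -3.38. Aldh1a2, an enzyme of retinoic acid synthesis, was at 10.5 CPM against 204 and 222 CPM in leptomeningeal and pial-like nuclei. The name dural-border-like thus rested on Slc47a1, Alpl and Fxyd5, while Dkk2 went against it, and the medians of the dura and arachnoid lists did not set these layers apart.

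**Figure D1:**
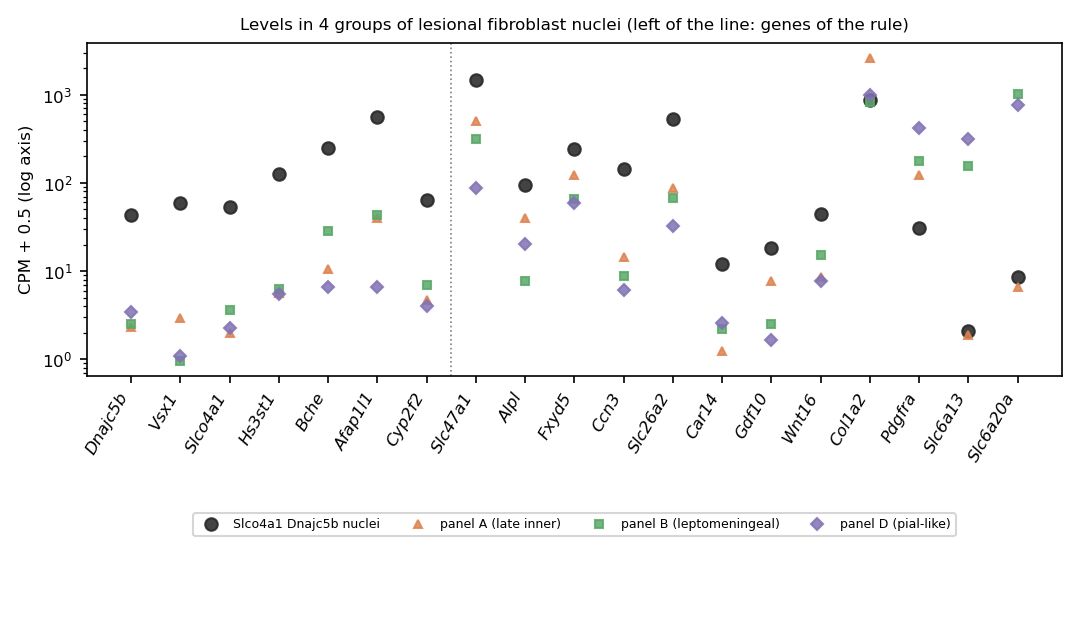
Level of each gene as CPM plus 0.5 on a log axis in the 4 groups of lesional fibroblast nuclei, both libraries together, with the 7 genes of the rule to the left of the dotted line. Slc47a1, Ccn3 and Slc26a2 stood highest in Slco4a1 Dnajc5b nuclei (1484, 144 and 532 CPM), and Slc6a13 and Slc6a20a, highest in leptomeningeal or pial-like nuclei, were at 1.59 and 7.97 CPM.

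The 15 highest ratios belonged to genes of several kinds. Ccn3 (ENSMUSG00000037362), a secreted matricellular protein, had the highest, at 144 CPM (131 to 158) against 10.5 CPM (3.77, 3.53 to 4.02), and its ratio was 3.48 to 5.04 in the 4 mice. Slc26a2 (ENSMUSG00000034320), a sulfate transporter needed for the sulfation of proteoglycans, was at 532 CPM against 70.7 CPM (2.91, 2.81 to 3.01). The sodium-proton exchanger Slc9a2 was at 98.5 CPM against 10.4 CPM (3.24) and its relative Slc9b1 at 29.3 CPM against 4.68 CPM (2.65). Car14, a membrane carbonic anhydrase, was at 11.5 CPM (3.13). Esr2, which encodes oestrogen receptor β, was at 27.1 CPM against 3.23 CPM (3.07), with ratios of 4.38 and 4.39 in the female mouse labelled control and the male mouse labelled Cxcl12-cKO and of 1.57 and 1.75 in the others. Galnt13, an enzyme that starts O-linked glycosylation, was at 695 CPM against 115 CPM (2.60), and Hhip, an antagonist of hedgehog ligands, at 17.8 CPM (2.64). The others of the 15 were Gm5860, Cyp2s1, Lrrc38, Gm14061, Agbl1, Gm6260 and Tmem266, with ratios of 2.60 to 3.30.

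Of 31 solute carrier and ABC transporter genes outside the rule, 10 were called higher and 14 lower, with a median of -0.37. The whole list, with the genes of the rule that it holds, summed to 10171 CPM, against 5648 to 7556 CPM in the other groups. Slc38a2, a carrier of neutral amino acids, was at 2757 CPM against 551 to 1615 CPM (1.22), and the potassium-dependent sodium-calcium exchanger Slc24a3 at 2506 CPM against 653 to 823 CPM (1.72, 1.68 to 1.76). These 2 genes held much of the sum. The monocarboxylate carrier Slc16a1 was at 42.7 CPM against 10.1 to 17.2 CPM (1.63). The carriers on the low side were those of leptomeningeal and pial-like nuclei. Slc6a13 (ENSMUSG00000030108), a carrier of GABA and taurine, was at 1.59 CPM against 156 and 314 CPM there (-5.95, -7.71 to -4.86). Slc6a20a (ENSMUSG00000036814), a proline carrier, was at 7.97 CPM against 1025 and 759 CPM (-5.89, -6.54 to -5.35), and Slc6a12 had no UMI at all, which is at least 16.5-fold lower. Late inner nuclei were also low in Slc6a13 and Slc6a20a, at 1.39 and 6.18 CPM.

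Among the other lowest ratios, Musk (ENSMUSG00000057280), a receptor kinase best known at the neuromuscular junction, had no UMI in these nuclei and 440 in the others, at least 23.9-fold lower. Top2a, a topoisomerase of dividing cells, also had none, at least 12.4-fold lower. Of 5 genes of dividing cells, 4 could be compared and all 4 were called lower, and their sum was 2.23 CPM against 12.1 to 46.4 CPM. Slpi, Sema5b, C6, Pou2af1, Gm48521 and 2900042K21Rik were likewise without a UMI, at bounds of 4.84-fold to 8.54-fold lower. The laminin chain Lamc3 was at 0.637 CPM against 29.5 CPM (-5.21), the ATPase gene Atp13a5 at 1.27 CPM against 80.0 CPM (-5.80), Dapk2 at -4.88 and Gm30613 at -5.19.

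Slco4a1 Dnajc5b nuclei were poor in matrix transcripts beside late inner and pial-like nuclei, but not in every list beside leptomeningeal nuclei. The proteoglycan and matricellular list summed to 2314 CPM against 2319 CPM in leptomeningeal nuclei, and the matrix protease and inhibitor list to 4059 against 3468 CPM. Late inner nuclei were chosen on panel A, which holds the matrix genes Col14a1 and Eln, so their high matrix level is no independent result. Of 12 fibrillar and type VI collagen genes outside the rule, 9 were called lower and none higher (median -1.47). The whole list, with Col14a1 of the rule, summed to 2541 CPM. It was at 9450 CPM in late inner nuclei and 2688 and 3682 CPM in leptomeningeal and pial-like nuclei. Col1a1 was at 232 CPM against 369 to 1075 CPM (-1.65), Col3a1 at 246 CPM against 336 to 1107 CPM (-1.64) and Col6a3 at 23.3 CPM against 66.3 to 308 CPM (-3.10). Col1a2 was at 866 CPM (-1.01), which was below the 2636 CPM of late inner nuclei and close to the 826 CPM of leptomeningeal nuclei. Of 13 basement membrane genes 7 were called lower, Col15a1 among them at 2.23 CPM against 206 CPM in pial-like nuclei. Of 23 proteoglycan and matricellular genes 8 were called lower and none higher, with Postn at 8.28 CPM (-2.82) and the small proteoglycan Bgn at 39.2 CPM (-1.39), both near the 8.72 and 30.2 CPM of leptomeningeal nuclei. Fn1 and Fbln1, at 504 and 295 CPM (0.13 and 0.46), were not among them. As a whole the 10 fibroblast markers stood at 2768 CPM, against 7327, 3450 and 4398 CPM, and Pdgfra, a receptor for platelet-derived growth factor, at 30.6 CPM against 124 to 419 CPM (-2.66).

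**Figure D2:**
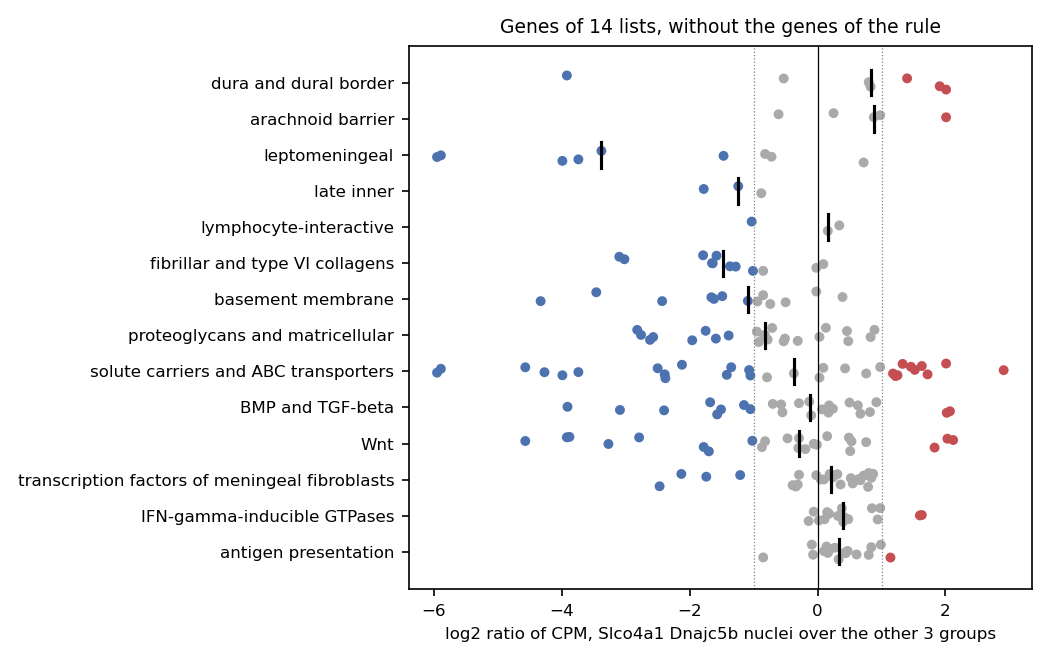
Each point is the log2 ratio of the CPM of 1 gene in Slco4a1 Dnajc5b nuclei over that in the nuclei of panels A, B and D together, for genes with at least 50 UMIs in 14 lists, red or blue where called and grey where not, with the median of each list as a black bar and 2-fold as dotted lines. Medians were lowest for leptomeningeal genes (-3.38) and collagens (-1.47), and 0.83 for dura and dural border genes.

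Signalling genes went both ways within their lists, where 2.78% of all genes were called higher and 8.42% lower. Among 24 Wnt genes, 3 were called higher and 8 lower. Wnt16, a secreted ligand, was at 44.0 CPM against 7.32 to 14.6 CPM (2.12, 1.79 to 2.44), its receptor family member Fzd4 at 20.1 CPM (2.03) and Rspo3, a secreted enhancer of Wnt signals, at 257 CPM against 20.8 to 113 CPM (1.83). The transcription factor Lef1 was at 3.50 CPM against 101 and 107 CPM in leptomeningeal and pial-like nuclei (-3.88), and Notum, an enzyme that inactivates Wnt ligands, had no UMI. Among 26 BMP and TGF-β genes, 2 were called higher and 8 lower. Id1, a target gene of BMP signals, was at 23.3 CPM (2.07) and the ligand gene Gdf10 at 17.8 CPM (2.02), whereas the latent TGF-β binding proteins Ltbp2 and Ltbp1 were at 7.97 and 13.7 CPM (-3.91 and -3.09). Among 27 guidance genes 3 were called higher and 7 lower. The netrin receptor Unc5c was at 1872 CPM against 461 to 1006 CPM (1.33), its ligand Ntn1 at 119 CPM (1.44) and Slit3 at 1009 CPM (1.11), while the ephrin receptor Epha3 was at 225 CPM against 1859 CPM in late inner and 172 CPM in leptomeningeal nuclei (-2.21).

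Smaller groups showed single genes of note. Gja1, which encodes the gap junction protein connexin 43, was at 197 CPM against 66.6 to 120 CPM (1.23) and was the 1 gene called higher of 16 junction genes outside the rule. Gclc, the rate-limiting enzyme of glutathione synthesis, was at 131 CPM (1.35), and Gstm5, a glutathione transferase, at 11.8 CPM (1.61). Tnfrsf11b, the decoy receptor osteoprotegerin, was at 54.8 CPM against 6.44 to 15.3 CPM (2.22), and its ligand gene Tnfsf11 had no UMI. Igfbp2, a binding protein of insulin-like growth factors, was at 67.5 CPM (1.57). Of 25 transcription factors of meningeal fibroblasts, 4 were called lower and none higher. These included Ebf1 at 91.4 CPM against 822 CPM in late inner nuclei (-2.47), Ebf2 (-2.13) and Runx1 (-1.74), while Foxp1 and Foxp2, the most abundant, were at 5160 and 3547 CPM (0.79 and 0.64).

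Immune lists differed in their counts, to be read against 2.78% of all genes called higher and 8.42% lower. Of 28 type I interferon-stimulated genes none was called in either direction (median 0.13). Of 16 GTPase genes induced by interferon-γ, Gbp11 at 32.8 CPM (1.63) and Igtp at 5.74 CPM (1.60) were called higher. Of 17 antigen presentation genes, H2-Eb1 at 9.88 CPM (1.14) was called higher, and the costimulatory ligand gene Cd80 was at 85.7 CPM against 51.5 to 102 CPM (0.16, -0.03 to 0.35). Of 8 chemokine and receptor genes 4 were called lower and none higher (median -0.94). Cxcl1 and Cxcl9 had no UMI, Cxcl10 was at 0.956 CPM (-2.11), and Cxcl12 was at 78.1 CPM against 229, 55.4 and 168 CPM in late inner, leptomeningeal and pial-like nuclei (-1.03). Of 13 genes of T cell contact and survival 1 was called higher, Tnfrsf11b, and 3 lower, Tnfsf11, the adhesion gene Vcam1 at 6.05 CPM (-2.47) and the costimulatory ligand gene Cd86 at 3.50 CPM (-1.20). Of 12 complement genes, the central component gene C3 at 5.10 CPM (-1.82) and the regulator gene Cd55 at 5.74 CPM (-1.44) were called lower.

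The marker check did not change the direction of the genes with the highest and lowest ratios, but changed that of some other named genes. All 30 genes with the highest and lowest ratios were called again, with Ccn3 at 3.91 and Slc26a2 at 3.01, and 405 genes (2.87%) were called higher, but 1824 (12.9%) were called lower in place of 1193. Col1a2 (-0.87) and Cxcl12 (-0.91) were no longer called. The check was applied to Slco4a1 Dnajc5b nuclei alone. The oligodendrocyte list was at 292 CPM in all nuclei, against 135 to 175 CPM in the other groups, and 3 of 5 tested were called higher. Mbp went from a ratio of 1.21 to -1.35 with the check and Mag from 1.46 to -2.07. The check removes nuclei on the UMIs of this list, and the other groups were not filtered. These falls were thus in part set by the check and are a description. Hs6st3, a heparan sulfate sulfotransferase, went from 1.25 to -0.87 and Chrm2 from 1.72 to -2.23. The sums of the mural and T cell lists, at 20.7 and 9.24 CPM, lay within or below the ranges of the other groups (19.8 to 96.9 and 9.27 to 10.2 CPM), with Kcnj8 at 0.

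The share of these nuclei was lower under the Cxcl12-cKO label. They made up 4.77% (4.32 to 5.25%) of lesional barcodes with the UMI minimum under the control label and 2.88% (2.53 to 3.26%) under the Cxcl12-cKO label, a log2 ratio of -0.73 (-0.97 to -0.49). In the female mice the shares were 4.83% and 2.34% (-1.04, -1.45 to -0.65) and in the male mice 6.28% and 3.99% (-0.65, -1.02 to -0.29). As a share of the nuclei of all 4 panels they were 14.1% and 8.57%. Both mice labelled control were thus above both labelled Cxcl12-cKO, but the mice of a genotype shared a library. The rule counts UMIs of genes such as Slco4a1 and Cyp2f2 that were themselves lower under the Cxcl12-cKO label, so this share is no result apart from their levels. Without these 2 genes in the panel the shares were 3.98% and 2.60% (-0.62), and after the marker check 4.45% and 2.42% (-0.88).

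**Figure D3:**
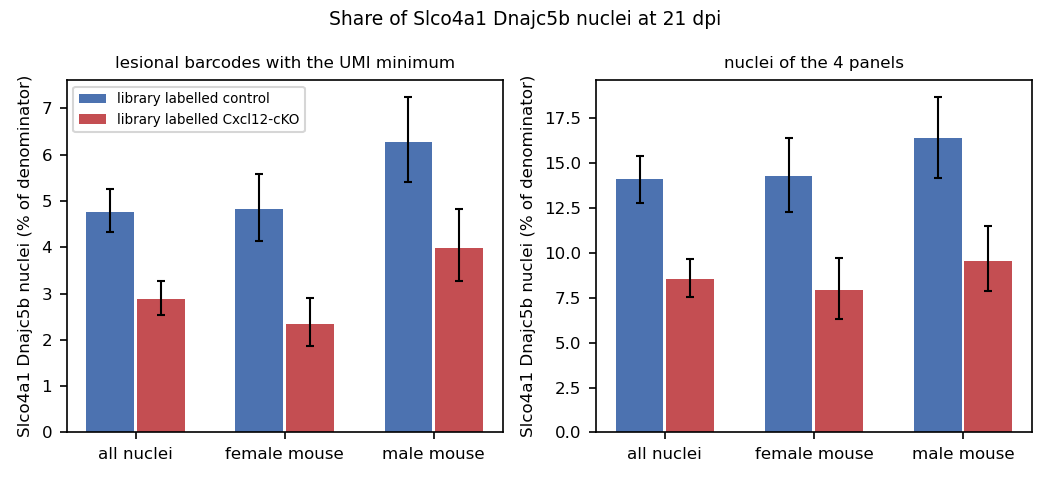
Percent of lesional barcodes with at least 757 UMIs (left) and of the nuclei of all 4 panels (right) that were Slco4a1 Dnajc5b nuclei, for all nuclei and for those assigned to the female or the male mouse, with 95% exact binomial intervals as bars. Shares were 4.77% and 2.88% on the left and 14.1% and 8.57% on the right, and lower under the Cxcl12-cKO label in both mice.

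Within Slco4a1 Dnajc5b nuclei, 7696 genes had at least 50 UMIs in both libraries together. A gene was called with a difference of at least 1.5-fold and an interval that excluded 0. By this rule 386 genes (5.02%) were higher and 193 (2.51%) lower under the Cxcl12-cKO label. After the marker check 160 (2.24%) were higher and 166 (2.33%) lower of 7129 genes, and 107 and 120 were called both times. The ratios of the female and the male mice had the same direction for 3529 of the 7696 genes, and for 203 of the 386 and 175 of the 193 called. The median log2 ratio of all genes was -0.02. Counts within the lists below are to be read beside the shares of all genes given here.

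Markers of several other cell types were also higher under the Cxcl12-cKO label, and their part in the higher genes was not tested. The marker check removes nuclei on the UMIs of these lists, so sums after it are in part set by that choice. The excitatory neuron list summed to 194 and 386 CPM under the control and Cxcl12-cKO labels, and to 88.9 and 113 CPM after the marker check. In the female mice it was at 189 and 453 CPM and in the male mice at 157 and 106 CPM. The inhibitory neuron list was at 58.0 and 85.2 CPM (0.56, 0.15 to 0.96), and its ratio was larger after the check, at 26.9 and 58.3 CPM (1.11, 0.53 to 1.70), with Erbb4 then called (1.23). The myeloid list was at 80.5 and 165 CPM (78.1 and 85.4 CPM after the check) and the mural list at 16.5 and 28.1 CPM (17.8 and 18.4 CPM after it). The astrocyte list was at 371 and 379 CPM (339 and 323 CPM after the check) and the oligodendrocyte list at 301 and 277 CPM (94.8 and 107 CPM after it). The T cell list had a log2 ratio of -1.34 (-3.20 to -0.03), and after the check its interval included 0 (-1.15, -3.01 to 0.16). Synaptic and neuronal genes such as Grin2a (77.5 and 200 CPM, 1.37) and Camk2a (39.5 and 77.3 CPM, 0.97) were called higher, and stood at 0.65 and 0.35 after the check. Grin2a was higher in the female (1.59) and lower in the male (-1.04) mice.

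Chrm3 (ENSMUSG00000046159), which encodes the M3 muscarinic acetylcholine receptor, had the highest ratio of the named genes. It was at 226 CPM (196 to 259) in the female and 159 CPM (133 to 188) in the male mouse labelled control, and at 1214 CPM (1104 to 1333) and 2562 CPM (2421 to 2709) in the female and male mice labelled Cxcl12-cKO. The mice of the 2 genotypes did not overlap, and the spread between the mice labelled Cxcl12-cKO was wide. In all, 398 and 2340 UMIs gave 199 and 2055 CPM, a log2 ratio of 3.37 (3.21 to 3.53), with 2.43 for the female and 4.01 for the male mice. After the marker check the levels were 186 and 2089 CPM (3.48, 3.32 to 3.66), so the difference was as large without the nuclei set aside.

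The difference in Chrm3 lay in how many nuclei held it as well as in how much. A UMI was found in 25.4% and 72.8% of Slco4a1 Dnajc5b nuclei, and in 8.56% (6.00 to 11.8%) and 51.5% (44.9 to 58.0%) after each nucleus was thinned to 757 UMIs. Nuclei with at least 20 UMIs were 0 of 167 and 0 of 175 in the female and male mice labelled control, and 8 of 80 (10.0%) and 23 of 102 (22.5%) in those labelled Cxcl12-cKO. Myeloid nuclei, taken as a background, held a Chrm3 UMI in 19.4% and 20.9% of nuclei and were at 146 and 150 CPM. The myeloid level was alike in both libraries, but it is no floor for all cell types, since pial-like nuclei labelled control were at 54.7 CPM (44.0 to 67.2), with a UMI in 9.24% of nuclei. The share of Slco4a1 Dnajc5b nuclei with a UMI, before thinning, was above the myeloid share by little under the control label and by much under the Cxcl12-cKO label. Myeloid nuclei were shallower, with medians of 3216 and 3120 UMIs against 4462 and 4148, and were not thinned. The small excess in that share under the control label thus cannot be told apart from depth. In CPM, which is relative to depth, the control levels were 199 (180 to 220) here and 146 in myeloid nuclei, a difference not tested.

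The other fibroblast groups differed less. Chrm3 was at 209 and 319 CPM in late inner nuclei (0.61, 0.49 to 0.73), at 170 and 490 CPM in leptomeningeal nuclei (1.53, 1.39 to 1.67) and at 54.7 and 142 CPM in pial-like nuclei (1.37, 1.02 to 1.74). In late inner nuclei the mice went opposite ways, with -0.88 for the female and 1.39 for the male mice. The interval of the ratio in Slco4a1 Dnajc5b nuclei overlapped none of these, but no test of the difference could be made with 1 library each. Of the other muscarinic genes, Chrm2 was at 8.50 and 53.6 CPM, but 1 nucleus held 56 of the 61 UMIs labelled Cxcl12-cKO, and its ratio went from 2.63 to -2.17 with the marker check. Bche, of the same list, was at 261 and 231 CPM (-0.18, -0.40 to 0.04), but it helped to choose the nuclei, so its ratio is a description.

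**Figure D4:**
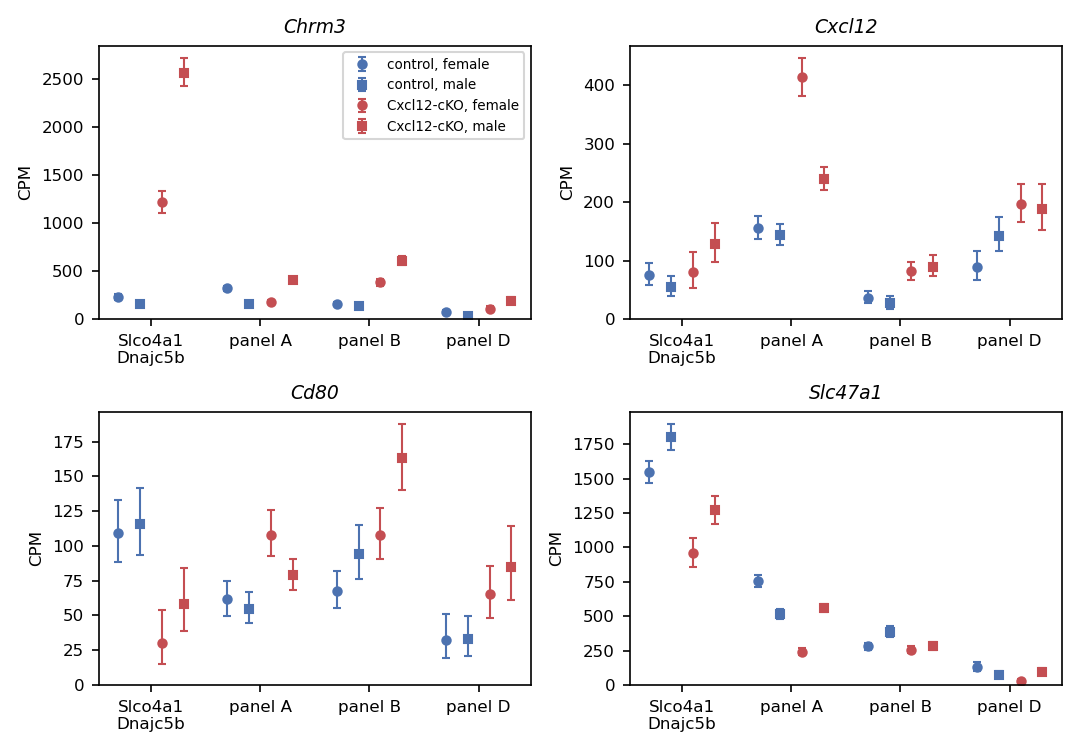
Level in CPM of Chrm3, Cxcl12, Cd80 and Slc47a1 in each mouse (circles female, squares male; blue labelled control, red labelled Cxcl12-cKO) in the 4 groups of nuclei, with 95% counting intervals. Chrm3 reached 1214 and 2562 CPM in Slco4a1 Dnajc5b nuclei labelled Cxcl12-cKO, and Cd80 was lower under that label in these nuclei and higher in the other 3 groups.

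Cxcl12, the targeted gene, encodes a chemokine that acts through the receptors of Cxcr4 and Ackr3. It was at 75.9 and 54.9 CPM in the female and male mice labelled control and at 79.7 and 128 CPM in those labelled Cxcl12-cKO. Pooled, it was at 66.0 CPM (55.2 to 78.3) and 99.2 CPM (81.8 to 119), a log2 ratio of 0.59 (0.21 to 0.96; 0.75 after the marker check) that rested on the male mice (1.22) and was 0.08 in the female mice. Late inner, leptomeningeal and pial-like nuclei were likewise higher under the Cxcl12-cKO label, by 0.97, 1.40 and 0.71. Which exons were floxed was not given in sources used here, and counts came from the 3′ end, so these values check nothing about the deletion. Ackr3 was at 17.0 and 22.8 CPM (0.43, -0.37 to 1.20).

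Cd80, a costimulatory ligand of T cells and a marker of lymphocyte-interactive fibroblasts, went the other way from its neighbours. In Slco4a1 Dnajc5b nuclei it was at 104 and 54.4 CPM under the control and Cxcl12-cKO labels (-0.92, -1.36 to -0.51; -0.81 after the marker check), with -1.79 in female and -0.98 in male mice. In late inner, leptomeningeal and pial-like nuclei the ratios were 0.58 (0.34 to 0.82), 0.78 (0.55 to 1.01) and 0.95 (0.49 to 1.44). The intervals lay on opposite sides of 0, and the difference between groups of nuclei was not tested.

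More matrix genes were called lower than higher under the Cxcl12-cKO label in all nuclei, but not in every list after the marker check. Beside these counts, 5.02% of all genes were called higher and 2.51% lower, and 2.24% and 2.33% after the check. Of 12 fibrillar and type VI collagen genes 2 were called lower and none higher, with a median of -0.13, and the sum was 2811 and 2067 CPM (2967 and 2390 CPM after the marker check). Col1a2 was at 1027 and 583 CPM (-0.82, -0.95 to -0.69), with -0.76 for the female and -0.90 for the male mice, and was called again after the marker check at -0.65. Col1a1 was at 268 and 169 CPM (-0.66) and was not called again (-0.47). Tnc, the matricellular protein tenascin C, was at 82.0 and 36.9 CPM (-1.14, -1.68 to -0.66), lower in the female (-1.49) and male (-1.58) mice and again after the check (-0.97). Bgn was at 47.0 and 25.5 CPM (-0.87) and was called again after the check. Of 16 proteoglycan and matricellular genes 3 were called lower and 1 higher, but after the check 2 lower and 2 higher. Spp1, osteopontin, was called higher both times, at a log2 ratio of 0.75 (0.12 to 1.38), with 0.06 for the female and 1.74 for the male mice. The small proteoglycan Lum, a gene named after its value was seen, was called higher after the check alone (0.81). Lum, Col1a1 and Col1a2 are among the fibroblast genes by which the check keeps nuclei, so their ratios after it are a description. Of 11 matrix protease and inhibitor genes 2 were called lower, and none either way after the check. The list sum after the check had a ratio of -0.01 (-0.06 to 0.05). It went opposite ways in the mice, with 0.23 (0.14 to 0.32) for the female and -0.12 (-0.21 to -0.04) for the male mice. Of 10 basement membrane genes, Nid2 at 26.5 and 14.1 CPM (-0.88) was called lower, and not after the check (-0.76).

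Tested genes of the dura and dural border list were alike or lower, but the genes of the rule went both ways. Hs3st1 (113 and 145 CPM), Vsx1 (55.0 and 65.9 CPM) and Dnajc5b (39.5 and 49.2 CPM) were higher under the Cxcl12-cKO label. Slco4a1, Cyp2f2, Bche and, by little, Afap1l1 were lower. No gene of the dura and dural border list was called of 6 tested (median -0.29). Slc47a1 was at 1650 and 1193 CPM (-0.47, -0.56 to -0.38; -0.40 after the marker check), Fxyd5 at 254 and 226 CPM (-0.17, -0.39 to 0.05) and Alpl at 104 and 78.2 CPM (-0.41, -0.79 to -0.05). Of 19 solute carrier genes, Slco4a1 (-0.80, -1.35 to -0.29) and Slc16a1 (50.5 and 29.0 CPM, -0.79) were called lower, both before and after the marker check. Slco4a1 was lower in the female (-1.05) and the male (-0.57) mice, and since it helped to choose the nuclei its ratio is a description. Ptgds, which encodes the synthase of prostaglandin D2 and marks the leptomeninges, was at 501 and 256 CPM (-0.96, -1.16 to -0.78; -0.93 after the check), with -1.40 for the female and -0.72 for the male mice.

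Signalling lists held from 0 to 3 genes called in a direction. Of 21 BMP and TGF-β genes, Id2 (51.0 and 22.8 CPM, -1.14), Id3 (41.0 and 18.4 CPM, -1.13) and Id1 (27.5 and 15.8 CPM, -0.77) were called lower and none higher, against 2.51% of all genes called lower. These 3 encode inhibitors of helix-loop-helix factors and respond to BMP. Id2 and Id3 were lower in both mice, whereas Id1 was at -0.95 in the male and 0.43 in the female mice. All 3 were called again after the marker check. Igfbp5, an abundant binding protein of insulin-like growth factors, was at 773 and 451 CPM (-0.78, -0.92 to -0.63; -0.65 after the check) and was the 1 gene called of 21 growth factor genes, with -0.72 and -0.89 in the female and male mice. Fzd4 was at 24.5 and 12.3 CPM (-0.96), with 0.02 for the female and -1.26 for the male mice. Of 25 guidance genes, Epha5 and Sema6d were called higher (1.20 and 1.03), against 5.02% of all genes. Sema6d alone was called again (0.62), against 2.24% of all genes after the marker check.

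Some genes induced by interferon-γ and of antigen presentation were called lower. Of 11 GTPase genes induced by interferon-γ (median -0.07, and 0.05 after the marker check), Iigp1 (76.0 and 30.7 CPM, -1.29), Irgm2 (40.0 and 23.7 CPM, -0.74) and Gbp6 (93.0 and 59.7 CPM, -0.63) were called lower, and Gbp6 was not called after the marker check. The list summed to 739 and 497 CPM in female mice under the 2 labels and to 269 and 327 CPM in the male mice (791 and 583 CPM, and 280 and 347 CPM, after the check), so the mice of a genotype differed by more than the libraries. Iigp1 stood at -1.56 for the female and 0.08 for the male mice. Of 7 antigen presentation genes, Cd74 (-1.21), H2-D1 (-1.15) and B2m (74.5 and 40.4 CPM, -0.87) were called lower, with -2.35, -1.41 and -1.02 in the female and -0.43, -0.05 and -0.06 in the male mice. That list summed to 537 and 352 CPM in the female and 331 and 325 CPM in the male mice. Of 14 type I interferon-stimulated genes Zbp1 was called lower (-0.90) and Ifit1 higher (0.87), and Ifit1 was not called after the check. Their sum in the female mice was at 1712 and 1692 CPM (-0.02, -0.15 to 0.12).

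**Figure D5:**
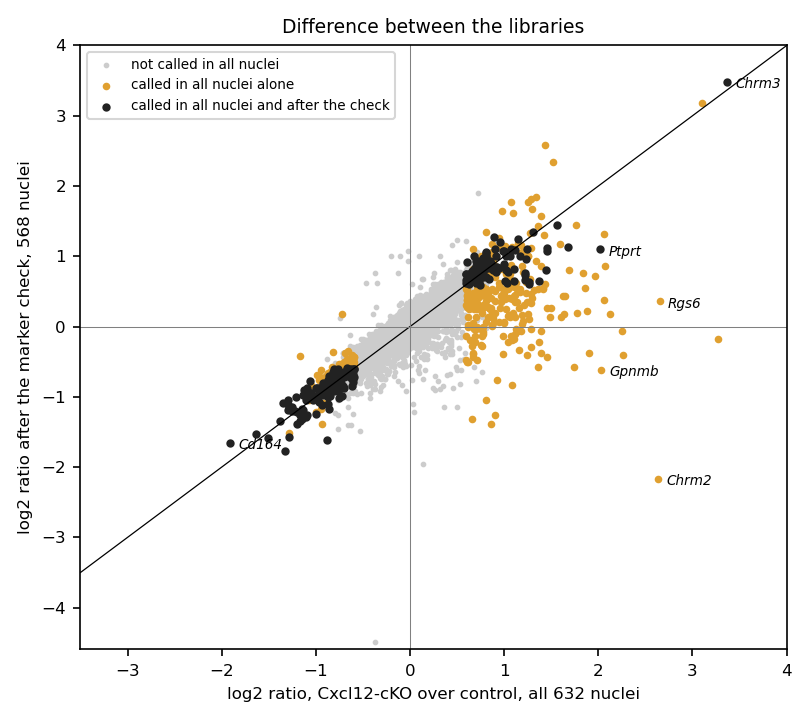
Log2 ratio of CPM, library labelled Cxcl12-cKO over library labelled control, for genes with at least 50 UMIs in all Slco4a1 Dnajc5b nuclei (horizontal) and after the marker check (vertical); black points were called both times, orange points in all nuclei alone, grey points not in all nuclei. Chrm3 lay near the diagonal (3.37 and 3.48), while Rgs6 (2.65 and 0.36), Gpnmb (2.03 and -0.62) and Chrm2 (2.63 and -2.17) did not.

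Among the 12 genes with the highest ratios and the same direction in both mice, 3 were called again after the marker check. Besides Chrm3 these were Ptprt (ENSMUSG00000053141), a receptor tyrosine phosphatase, at 53.0 and 215 CPM (2.02; 1.10 after the check), and the cadherin gene Cdh18 (ENSMUSG00000040420) at 42.5 and 137 CPM (1.68; 1.13 after the check). Cdh18, which also marks late inner fibroblasts, was at 41.8 and 90.7 CPM in the female and 48.8 and 104 CPM in the male mice. The gene model Gm47405 was at 4.50 and 40.4 CPM (3.10) and stood at 3.18 after the check, with fewer than 50 UMIs. Rgs6, a regulator of G protein signals, went from 2.65 to 0.36 and Gpnmb, a glycoprotein of macrophages, from 2.03 to -0.62. Brinp3, Dgkb, Arhgap24, Mtcl1 and Cracdl had ratios of 1.59 to 2.06 and of 0.72 to 1.45 after the check.

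Of the 12 genes with the lowest ratios and the same direction in both mice, 11 were called again. Cd164 (ENSMUSG00000019818), a sialomucin, was at 25.3 and 23.2 CPM in the female and male mice labelled control and at 2.75 and 10.4 CPM in those labelled Cxcl12-cKO (-1.91, -3.38 to -0.84; -1.66 after the check). Mdfic2 (ENSMUSG00000090667), the one with the most UMIs, was at 107 and 43.0 CPM (-1.30, -1.79 to -0.85), with -0.76 for the female and -1.24 for the male mice. Agrp, better known as a neuropeptide gene, had a ratio of -1.64 (-3.01 to -0.61), but of -0.06 in the male mice, at 13.4 and 12.4 CPM. Klhl20, Snrpb, Cntnap1, Zfp276, Dynll2, Klhl4, Rpl4 and Rabif ranged from -1.51 to -1.25, and Chn2 (-1.29) fell under 50 UMIs after the check. Of these 12 genes 11 rested on 7 to 14 UMIs under the Cxcl12-cKO label, so the ratios are coarse.

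Nuclei of the group varied among themselves. Variation was taken as the mean squared difference from the count that depth alone would give, divided by that expected count, with a median of 1.28 and 1.30 over 4224 genes under the control and Cxcl12-cKO labels. Among all 632 nuclei it was highest for Dpp10, Trpm3, Malat1, Lhfpl3, Kcnip4, Tnr, Kazn, Ptprd, Pde4b and Opcml, at averages of 33.2 to 45.9. After the marker check Trpm3, a cation channel, stayed at 43.9 and the nuclear RNA Malat1 at 40.6, whereas the other 8 were at 1.17 to 2.65. Ptgds (21.8), Col25a1 (21.4) and Cemip (13.8), a hyaluronan-binding protein, were then among the highest and were chosen after their values were seen. Chrm3 was at 4.69 and 10.9. The genes of the rule lay between 1.16 and 3.59, but they chose the nuclei and genes were not matched for level, so this is a description. Slc47a1 was at 3.80 and 3.73.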

How the data were processed

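Nuclei of lesion and perilesional cortex from PT-injured mice were tagged by region, pooled into 1 library per genotype and sequenced with Chromium 3′ v3.1 chemistry. The authors deposited 4 matrices (2 regions from 2 libraries) of raw UMI counts per gene and barcode, made with Cell Ranger 9.0.0 against GRCm39 per the submitters' processing notes, and not normalized. How barcodes were assigned to tags and called as cells was taken as deposited, and no doublet caller was run here. Doublets were limited by the exclusion genes and weighed by the marker check and by UMIs of both sexes. Counts covered 33696 gene features, 52 of them with a symbol that was not unique. The lesion matrices held 8608 and 8421 barcodes with 34769874 and 31995274 UMIs.

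UMIs were summed over nuclei with Python 3.11.15, numpy 2.4.6, scipy 1.17.1 and pandas 2.3.3, and figures drawn with matplotlib 3.10.9. Ratios added 0.5 to each sum, with exact conditional binomial 95% intervals. CPM intervals were exact Poisson and shares exact Clopper-Pearson, all covering counting error only. CPM was not scaled by gene length, so levels of different genes are not compared as molecules. The procedure was tested on simulated data drawn with counting error only, so that test could not show how variation between nuclei affects the intervals.

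The members, the 42 gene lists (543 genes, 1 not matched) and the panels were chosen with earlier results of these data known. Genes named were those of the panels and exclusion panel, Cxcl12, Cxcr4, Ackr3 and Chrm3, the 12 highest and 12 lowest called ratios between libraries and the 15 highest and 15 lowest between groups of nuclei with one direction in all mice, up to 4 abundant and 3 called genes each way of a list, and the 10 most variable genes. Of the 7 panel genes 5 had an upstream window in the RefSeq table. Parenchymal matrices served only as an outside check. One gene that the rule for named genes picked is not reported here.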

Additional observations from a re-analysis of the deposited data

Results flagged for a closer look

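In parenchymal tissue, outside the comparisons above, the same rule kept 36 of 3228 barcodes (1.12%) in the library labelled control and 45 of 3187 (1.41%) in the library labelled Cxcl12-cKO. The marker check left 22 and 17 of them, and the medians of neuron list UMIs were 1.00 and 31.0.

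Several ratios between libraries within Slco4a1 Dnajc5b nuclei went opposite ways in the female and the male mice, with intervals on opposite sides of 0, and the difference between the mice was not tested. The summed basement membrane list was at -0.21 for the female and 0.13 for the male mice, and the excitatory neuron list at 1.26 and -0.57. Hs3st1, a gene of the rule, was at 1.17 and -0.47, and Afap1l1, another, at 0.28 and -0.43. The small proteoglycan Dcn was at -1.03 and 0.72 and Sfrp4, a secreted Wnt antagonist, at -0.84 and 0.91. Unc5c was at -0.36 and 0.41, Epha3 at 0.53 and -0.74 and Rarb, a retinoic acid receptor, at -0.26 and 0.25. The adhesion gene Cdh2 was at 1.19 and -1.53, Hs6st3 at 0.41 and -2.12, Grin2a at 1.59 and -1.04 and the oligodendrocyte gene St18 at 0.46 and -0.57.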

How the results depend on the processing

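The share of Slco4a1 Dnajc5b nuclei was lower in the library labelled Cxcl12-cKO under all 12 alternatives run, at a log2 ratio of -0.62 to -1.04, the last in the female mice alone. The 386 genes called higher became 167 with at least 5 panel UMIs, 211 with the 5 marker genes, 256 without any exclusion UMI, 217 without the 10% deepest nuclei, 256 without nuclei of both sexes, 145 in the male mice, 160 after the marker check and 116 with at least 200 UMIs. The last setting, which tested fewer genes, also called 37 in place of 193 lower. Against the other fibroblast groups 1824 in place of 1193 were lower after the marker check. Where not stated, the cause was not tested.

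List medians that moved by more than counting error were those of collagens (-0.45 with 5 markers, -0.27 male, 0.00 after the marker check), proteoglycans (0.04 with at least 5 panel UMIs, -0.40 with 5 markers, -0.41 female), dura (-0.15 without the deepest nuclei, -0.18 male, -0.17 from 20 UMIs, -0.41 from 200 UMIs, -0.15 with nuclei weighted alike), solute carriers (0.01 with 5 markers, -0.03 without the deepest nuclei), BMP and TGF-β (-0.01 female) and antigen presentation (-0.57 female). Those of the IFN-γ GTPases were -0.45 and -0.42 with at least 2 and 5 panel UMIs, -0.68 female, -0.55 male and -0.63 from 200 UMIs. Those of type I interferon-stimulated genes were -0.22 and 0.12 with at least 2 and 5 panel UMIs, 0.09 with 5 markers, 0.14 female and 0.07 male.

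Of 644 ratios of 46 named genes under the alternatives, 534 stayed within counting error, 101 moved and 9 reversed. Reversed were Gpnmb (-0.62) after the marker check, Mtcl1 (-0.40) with at least 5 panel UMIs, Chn2 (0.10) without any exclusion UMI, Id1 (0.43) in the female and Iigp1 (0.08) in the male mice, and Chrm2 with at least 5 panel UMIs (-2.29), without nuclei of both sexes (-0.13), in the male mice (-2.04) and after the marker check (-2.17). The marker check, and the alternatives for the choice of nuclei in the comparison with other groups, were chosen after seeing the data. No paired analysis was possible because genotype and library cannot be told apart with 1 library each, so the ratios of the mice matched by sex are given as values without a test. Depth limits genes near 50 UMIs, whose intervals span more than 1 log2 unit.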
